A study of Mus musculus with 6 samples.

Results

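Transcripts of the nuclear genes for oxidative phosphorylation were examined in alveolar macrophages (AMs), the macrophages of the lung airspaces. Genes were taken by name, as those whose symbol starts with Ndufa, Ndufb, Ndufc, Ndufs, Ndufv, Uqcr, Cox4 to Cox8 or Atp5, with Sdha, Sdhb, Sdhc, Sdhd and Cyc1. Such a name was carried by 93 of 24341 genes, and 87 of these averaged 0.5 FPKM or more. FPKM counts the sequenced fragments of a gene scaled to transcript length and to the fragments mapped. Of the 87 genes, 78 code for subunits, 36 of them of complex I, 4 of complex II, 9 of complex III, 14 of complex IV and 15 of complex V. The other 9 share the names but are not subunits: Ndufaf1 to Ndufaf7, which help to assemble complex I, Atp5s, a coupling factor of ATP synthase, and its relative Atp5sl. Ndufa4, which was named for complex I, was counted with complex IV, where it is now placed.

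AMs were collected by bronchoalveolar lavage from female C57BL/6 mice aged 6 to 10 weeks, either CD44+/+ or CD44-/-. CD44 is the receptor by which AMs bind hyaluronan, and the CD44-/- mice lack it in every cell and not in AMs alone. There were 3 samples per genotype, each pooled from 2 or 4 mice, so replicate error is the spread between pools. Lavage cells were treated to lyse red cells, and the labels name no sort of AMs.

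Oxidative phosphorylation is carried out by 5 complexes of the inner mitochondrial membrane. Complexes I and II pass electrons from NADH and succinate to ubiquinone, complex III passes them on to cytochrome c, and complex IV hands them to oxygen. Complexes I, III and IV pump protons across the membrane, and complex V, the ATP synthase, makes ATP from their return. AMs are known for a mitochondrial metabolism that relies on this pathway, which also takes up electrons from the oxidation of surfactant fatty acids. Further core subunits of complexes I, III, IV and V are encoded by mitochondrial DNA. None of them was found by name in the deposited values, so they were not analysed here.

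The Cd44 transcript, which checks the labels, was at 527 to 540 FPKM in the wild type and at 51.4 to 54.7 FPKM in the knockout. Of the 18 fixed AM markers 15 were found in the table, all 15 above 0.5 FPKM, and their summed level was 17303 to 19665 FPKM in CD44+/+ samples and 16402 to 20629 FPKM in CD44-/- samples. Markers of other cells were lower in sum: 821 to 1349 FPKM (CD44+/+) and 628 to 1059 FPKM (CD44-/-) for 7 genes of airway secretory cells, 91.2 to 106 and 94.4 to 169 FPKM for 9 genes of alveolar type 2 cells, and 62.7 to 103 and 75.2 to 85.2 FPKM for 9 genes of neutrophils. The 6 erythroid genes summed to 2.53 to 17.9 FPKM (CD44+/+) and 2.99 to 58.1 FPKM (CD44-/-), and the 8 lymphocyte genes to 1.17 to 2.38 and 0.75 to 1.27 FPKM. The neutrophil granule genes Ngp and Camp were listed at 0 in every sample, and no marker on any list passed an adjusted p of 0.05. Relative depth, from the ratios of values under 0.05 FPKM between samples, was 0.814 to 1.05 of that of CD44+/+ replicate 1.

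In AMs of both genotypes the subunits were among the most abundant transcripts. Their median level was 112.5 FPKM against 12.2 FPKM for all 10800 genes tested, 56 of the 78 lay in the top 10% of tested genes, and 2 lay under the median gene. The 87 genes together made up 2.24% to 2.29% of the summed FPKM of a CD44+/+ sample and 2.31% to 2.37% of that of a CD44-/- sample. Complex IV and complex V took the largest parts. Of the sum over the 87 genes, complex V held 29.2% ± 0.249 (SD over 3 samples) in CD44+/+ AMs against 29.1% ± 0.119 in CD44-/- AMs, and complex IV 28.6% ± 0.102 against 28.5% ± 0.325. Complex I, with the most genes, held 26.2% ± 0.253 and 26.4% ± 0.448, complex III 11.4% ± 0.191 and 11.4% ± 0.248, and complex II 4.08% ± 0.0362 and 4.03% ± 0.0703. In each complex the genotypes differed by less than the larger of their SDs. The sums hold no mitochondrially encoded subunit, so these are shares of the nuclear genes only. Per gene the median level was highest in complex IV (237 FPKM), followed by complex V (168 FPKM), complex III (162 FPKM), complex II (115 FPKM) and complex I (79.3 FPKM). The 9 genes that are not subunits were far lower, at a median of 4.89 FPKM and 2.06 to 17.6 FPKM.

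**Figure D1:**
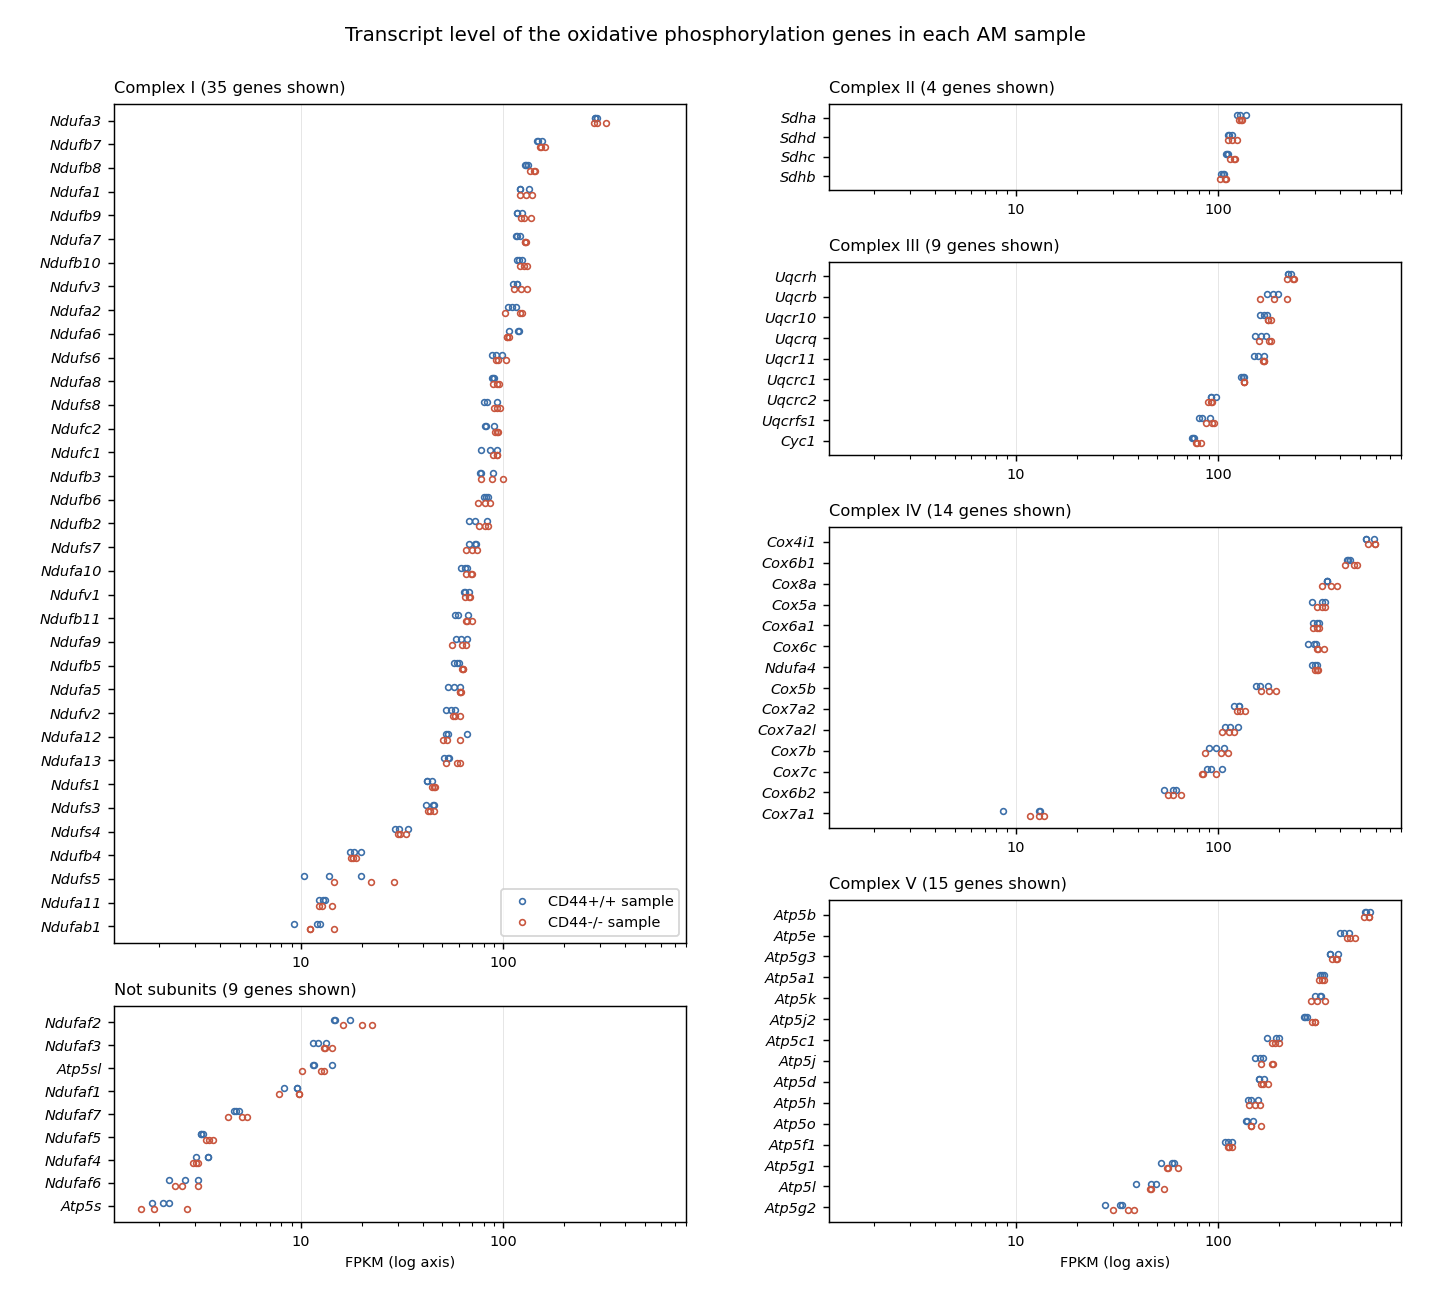
FPKM (log axis) of the genes of the set, but 1 not reported here, in each AM sample, one panel per complex, with genes in the order of their mean; open blue circles are the 3 CD44+/+ samples and open red circles the 3 CD44-/- samples. The 4 complex II genes sit close together near 100 FPKM, while complex I spans 11.7 to 291 FPKM and complex IV 12.2 to 565 FPKM.

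The plot of levels by gene shows how far the genes of one complex spread. In complex II, with only 4 genes, the means ran from 106 FPKM for Sdhb to 129 FPKM for Sdha, a ratio of 1.22. The ratio of the highest to the lowest gene was 2.92 in complex III (9 genes), 16.5 in complex V (15 genes), 24.8 in complex I (36 genes) and 46.2 in complex IV (14 genes). Such a ratio grows with the number of genes, so the complexes cannot be ranked by it. That of complex V rests on Atp5g2, a gene whose level is uncertain. The ratio of complex I rests on Ndufab1, whose level may be uncertain too.

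In complex I, the NADH dehydrogenase, the highest genes were those of small accessory subunits. Ndufa3 had 283, 291 and 282 FPKM in CD44+/+ AMs and 289, 281 and 320 FPKM in CD44-/- AMs. Its samples overlapped between genotypes. Ndufb7 followed with 155, 148 and 146 FPKM against 153, 152 and 161 FPKM, also with overlap, and then Ndufb8 with a mean of 135 FPKM. The core subunits Ndufs1, Ndufs3, Ndufs7, Ndufs8, Ndufv1 and Ndufv2, which carry or surround the flavin and iron-sulfur clusters of the electron path, lay between 43.9 and 89.1 FPKM. At the low end were Ndufab1 (11.7 FPKM), the acyl carrier protein of mitochondria, Ndufa11 (12.9 FPKM), Ndufs5 (18.3 FPKM) and Ndufb4 (18.4 FPKM).

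In complex II, the succinate dehydrogenase, Sdha carries the flavin and Sdhb the iron-sulfur clusters, while Sdhc and Sdhd anchor both in the membrane. Sdha had 136, 124 and 128 FPKM in CD44+/+ AMs and 127, 129 and 130 FPKM in CD44-/- AMs. Sdhd had 117, 112 and 113 FPKM against 123, 111 and 116 FPKM. Sdhb had 105, 106 and 103 FPKM against 102, 108 and 109 FPKM. The genotypes overlapped in all 3 genes. In Sdhc, with 109, 111 and 110 FPKM against 120, 114 and 119 FPKM, they did not, and the log2 difference, CD44-/- minus CD44+/+, was 0.097 (95% interval -0.0049 to 0.20).

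In complex III the hinge protein gene Uqcrh was highest, with 221, 220 and 227 FPKM in CD44+/+ AMs and 235, 218 and 233 FPKM in CD44-/- AMs. Uqcrb, a small ubiquinone-binding subunit, had 197, 186 and 174 FPKM against 217, 160 and 187 FPKM, the widest spread of the complex. Uqcr10, one of its smallest subunits, had 161, 168 and 174 FPKM against 175, 176 and 182 FPKM. Here the genotypes were apart, by a log2 difference of 0.084. The redox centres encoded in the nucleus were lower, with means of 87.95 FPKM for Uqcrfs1, the Rieske iron-sulfur protein, and 77.2 FPKM for Cyc1, cytochrome c1. Cyc1 had 75.6, 74.9 and 73.8 FPKM in CD44+/+ AMs and 82.4, 78.5 and 77.7 FPKM in CD44-/- AMs, again without overlap, and a log2 difference of 0.089. The 2 large core proteins Uqcrc1 and Uqcrc2 had means of 132 and 92.4 FPKM.

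In complex IV, the cytochrome c oxidase, Cox4i1 was the highest of all 87 genes, with 585, 538 and 533 FPKM in CD44+/+ AMs and 590, 549 and 595 FPKM in CD44-/- AMs. Cox6b1, which faces cytochrome c, had 431, 446 and 435 FPKM against 468, 420 and 481 FPKM. Cox8a had 345, 344 and 343 FPKM against 384, 324 and 358 FPKM. In all 3 the genotypes overlapped. Cox6c, another small subunit of the complex, had 304, 297 and 276 FPKM against 331, 305 and 309 FPKM. Its genotypes were apart, narrowly, with a log2 difference of 0.11 (95% interval -0.020 to 0.24). Cox5b, which binds zinc, had 154, 161 and 176 FPKM against 162, 178 and 192 FPKM, with overlap.

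In complex V the catalytic beta subunit gene Atp5b led with 559, 536 and 531 FPKM in CD44+/+ AMs and 553, 523 and 556 FPKM in CD44-/- AMs. Atp5a1, the alpha subunit that forms the catalytic head with it, had a mean of 323 FPKM. Atp5e, the epsilon subunit of the central stalk, had 439, 416 and 398 FPKM against 474, 432 and 444 FPKM. The other stalk genes Atp5c1 and Atp5d were at 189 and 165 FPKM, and the lowest of the complex was Atp5g2 at 33.0 FPKM.

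Several subunits of complexes IV and V come in forms encoded by separate genes, some of them known from heart and skeletal muscle, lung or testis. AMs used mainly the widely expressed forms. Cox4i1 made up 99.9% to 100% of the Cox4 pair in every sample; its partner Cox4i2, known from lung and from low oxygen, was listed at 0, 0.299 and 0.0863 FPKM in CD44+/+ AMs and 0.197, 0 and 0.0972 FPKM in CD44-/- AMs. Cox7b2, Cox8b and Cox8c, known from testis or muscle, were listed at 0 in every sample, beside 99.0 FPKM for Cox7b and 349.7 FPKM for Cox8a. Ndufa4l2, known for its response to low oxygen, was listed at 0 in all CD44+/+ samples and at 0.0675, 0.0782 and 0 FPKM in CD44-/- AMs, against 291, 306 and 301 FPKM and 311, 301 and 308 FPKM for Ndufa4. Cox6a1 had 312, 307 and 293 FPKM in CD44+/+ AMs and 313, 292 and 306 FPKM in CD44-/- AMs, while its heart and muscle partner Cox6a2 was at 0, 0 and 0.197 FPKM and 0.342, 0.761 and 0.666 FPKM.

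In 2 families a form known from other tissues was clearly present. Cox6b2, known mainly from testis, had 61.8, 59.8 and 53.8 FPKM in CD44+/+ AMs and 65.5, 59.5 and 56.2 FPKM in CD44-/- AMs, which was 10.5% to 12.5% of the Cox6b pair. Cox7a1, the heart and muscle form, had 13.1, 8.60 and 13 FPKM against 13, 13.8 and 11.8 FPKM, or 3.44% to 5.62% of the family. The rest of that family was split between Cox7a2 (119, 127 and 126 FPKM against 124, 128 and 135 FPKM) and Cox7a2l (125, 114 and 107 FPKM against 119, 104 and 113 FPKM). Cox7a2l is described as a factor that joins complexes III and IV, but its protein and its function in these mice were not measured. The c ring of ATP synthase, built from one and the same mature protein whichever gene encodes it, was mostly transcribed from Atp5g3, which held 79.2% to 81.7% of the family in FPKM, with Atp5g1 at 11.8% to 13.1% and Atp5g2 at 5.73% to 7.87%. Atp5g3 had 391, 357 and 355 FPKM in CD44+/+ AMs and 382, 366 and 384 FPKM in CD44-/- AMs, and Atp5g1 60.3, 58.8 and 52.03 FPKM against 56.2, 55.6 and 62.9 FPKM. For each family in this paragraph the share of every form overlapped between genotypes. Atp5g1 and Atp5g2 have sequence in common with other transcripts, so their shares are uncertain.

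**Figure D2:**
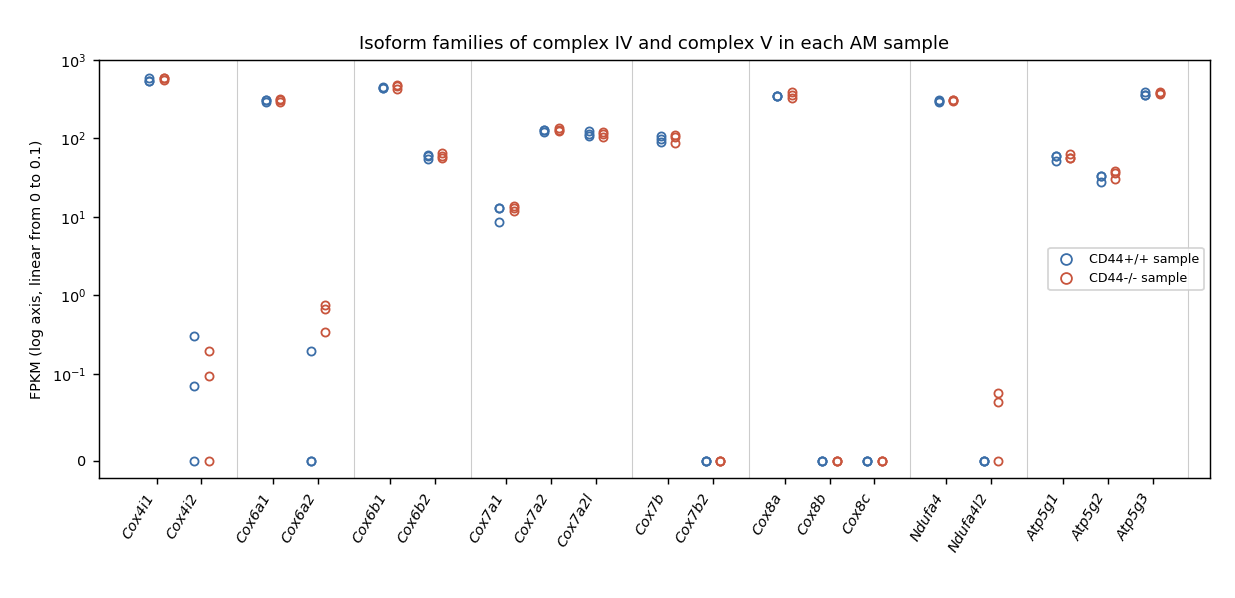
FPKM (log axis, linear from 0 to 0.1) of the genes in 8 isoform families in each AM sample; blue circles are CD44+/+ samples and red circles CD44-/- samples, and grey lines part the families. Cox4i1, Cox6a1, Cox8a and Ndufa4 lie at 291 to 595 FPKM with their partners at or near 0, while Cox6b2 (53.8 to 65.5 FPKM) and Cox7a1 (8.60 to 13.8 FPKM) are expressed beside the main forms.

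Of the 6 genes left out for a low mean, the highest were Cox6a2 (mean 0.328 FPKM) and Cox4i2 (0.113 FPKM), and the lowest kept were Atp5s (2.06 FPKM) and Ndufaf6 (2.69 FPKM), so no gene lay near the limit of 0.5 FPKM from above. Atp5s had 2.08, 2.22 and 1.83 FPKM in CD44+/+ AMs and 1.63, 2.74 and 1.88 FPKM in CD44-/- AMs. For Ndufaf6 the values were 3.11, 2.24 and 2.69 FPKM against 3.09, 2.38 and 2.60 FPKM.

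The question of the comparison was whether loss of CD44 went with a change in these transcripts. None of the 87 genes passed an adjusted p of 0.05 (limma on log2(FPKM + 0.1), Benjamini-Hochberg over all genes tested), where 0.111% of all 10800 genes did. The differences were small and mostly positive: 69 of the 87 genes (79.3%) were higher on average in CD44-/- AMs, against 55.8% of all genes tested, and the median log2 difference, CD44-/- minus CD44+/+, was 0.054 against 0.013 for all genes. With no adjustment, 6 genes were higher in CD44-/- AMs at p under 0.05 (6.90%, against 4.75% of all genes) and 0 were lower (against 2.94%). In bulk samples fewer cells of a type and less RNA per cell cannot be told apart.

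With the replicate number as a block, the count at an unadjusted p under 0.05 was 10 higher and 0 lower, where 6.05% and 3.67% of all genes were higher and lower. Still no gene passed an adjusted p of 0.05, and the smallest was 0.258 for Ndufaf2. The 4 added genes were Ndufs5, Ndufs8, Cox5b and Atp5g2. The count of 6 also moved with scaling, to 2 (Ndufaf2 and Atp5j2) with median-ratio scaling, under which 4.31% of all genes were higher and 4.07% lower and 63 of the 87 genes were positive against 48.4% of all genes. With quantile normalization it was 11, where 4.22% of all genes were higher and 4.13% lower, and 68 of the 87 were positive against 48.1%. Without CD44-/- replicate 3 it was 2 (Atp5j2 and Ndufa7), where 3.36% of all genes were higher and 1.98% lower, and without CD44+/+ replicate 3 it was 3, where 3.76% were higher and 2.93% lower.

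The samples of the genotypes did not overlap in 10 genes, all higher in CD44-/- AMs (11.5%, against 6.75% of all genes, and 4.88% for lower). These were Ndufa7, Ndufb5, Ndufb8 and Ndufc2 of complex I, Sdhc of complex II, Cyc1 and Uqcr10 of complex III, Cox6c of complex IV, Atp5j2 of complex V, and Ndufaf5. For each of the 10 genes taken alone, an exact permutation test (2-sided) gave 0.1, the lowest p possible with 3 samples against 3.

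The gene with the smallest adjusted p was Atp5j2, the f subunit in the membrane part of ATP synthase, on chromosome 5 of mm10 from 145183706 to 145191592. It had 267, 263 and 274 FPKM in CD44+/+ AMs and 300.0, 288 and 299 FPKM in CD44-/- AMs. Every CD44-/- sample lay above every CD44+/+ sample, but the log2 difference of 0.14 (standard error 0.045) had an adjusted p of 0.467 in limma. Atp5j, coupling factor 6 in the stalk of the same complex, had 166, 160 and 152 FPKM against 186, 162 and 184 FPKM. Here CD44-/- replicate 2 lay among the CD44+/+ samples, and the log2 difference was 0.15 (95% interval 0.0018 to 0.30, adjusted p = 0.645 in limma).

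Of complex I, 3 accessory subunit genes had an unadjusted p under 0.05. Ndufa7 had 115, 116 and 121 FPKM in CD44+/+ AMs and 129, 128 and 127 FPKM in CD44-/- AMs, a log2 difference of 0.13 (standard error 0.044, adjusted p = 0.514 in limma). Ndufc2 had 82.4, 90.3 and 80.9 FPKM against 90.9, 93.1 and 94.4 FPKM, a log2 difference of 0.14. Ndufb8 had 129, 132 and 128 FPKM against 135, 142 and 143 FPKM, a log2 difference of 0.11. In all 3 genes the samples of the genotypes were apart, in Ndufc2 narrowly. Ndufb5, with 58.9, 60.2 and 56.7 FPKM against 62.3, 63.2 and 62.9 FPKM, was apart too, with a log2 difference of 0.10 and an interval that held 0. Ndufb11, on the X chromosome and with a log2 difference of 0.13, had 57.7, 66.8 and 59.8 FPKM against 65.2, 66.3 and 70.0 FPKM, with overlap.

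The lowest difference of a subunit was that of Ndufa6, an accessory subunit of complex I, with 106, 118 and 119 FPKM in CD44+/+ AMs and 106, 104 and 104 FPKM in CD44-/- AMs. The samples touched at 106 FPKM, and the log2 difference of -0.13 had a 95% interval of -0.25 to 0.0019 (limma, adjusted p = 0.658). Cox7c, a small subunit of complex IV, followed with a log2 difference of -0.11.

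Among the assembly factors of complex I, Ndufaf2 had the largest difference, with 17.4, 14.6 and 14.8 FPKM in CD44+/+ AMs and 22.5, 16.1 and 20 FPKM in CD44-/- AMs. CD44-/- replicate 2 overlapped with the CD44+/+ samples, and the log2 difference was 0.31 (standard error 0.12, adjusted p = 0.586 in limma and 0.258 with the block). It was 0.21 without CD44-/- replicate 1 and 0.45 without CD44-/- replicate 2. Ndufaf3 had 12.1, 13.3 and 11.5 FPKM against 13, 13.2 and 14.3 FPKM, a log2 difference of 0.13. Ndufaf4 had 3.49, 3.46 and 3.05 FPKM against 3.12, 2.93 and 3.02 FPKM, a log2 difference of -0.13. The genotypes overlapped in both.

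The data also bound the size of change that could have been missed. The 95% interval of the log2 difference lay within ±0.3, where the upper limit is an increase of 23.1%, for 73 of the 87 genes (83.9%, against 57.7% of all genes tested). It lay within ±0.5, where the upper limit is an increase of 41.4%, for all but Ndufs5, Cox7a1 and Ndufaf2. Replicate spread was correspondingly low: the median coefficient of variation was 4.92% in CD44+/+ AMs and 4.77% in CD44-/- AMs, against 7.27% and 6.14% for all genes tested, most of which are less abundant.

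**Figure D3:**
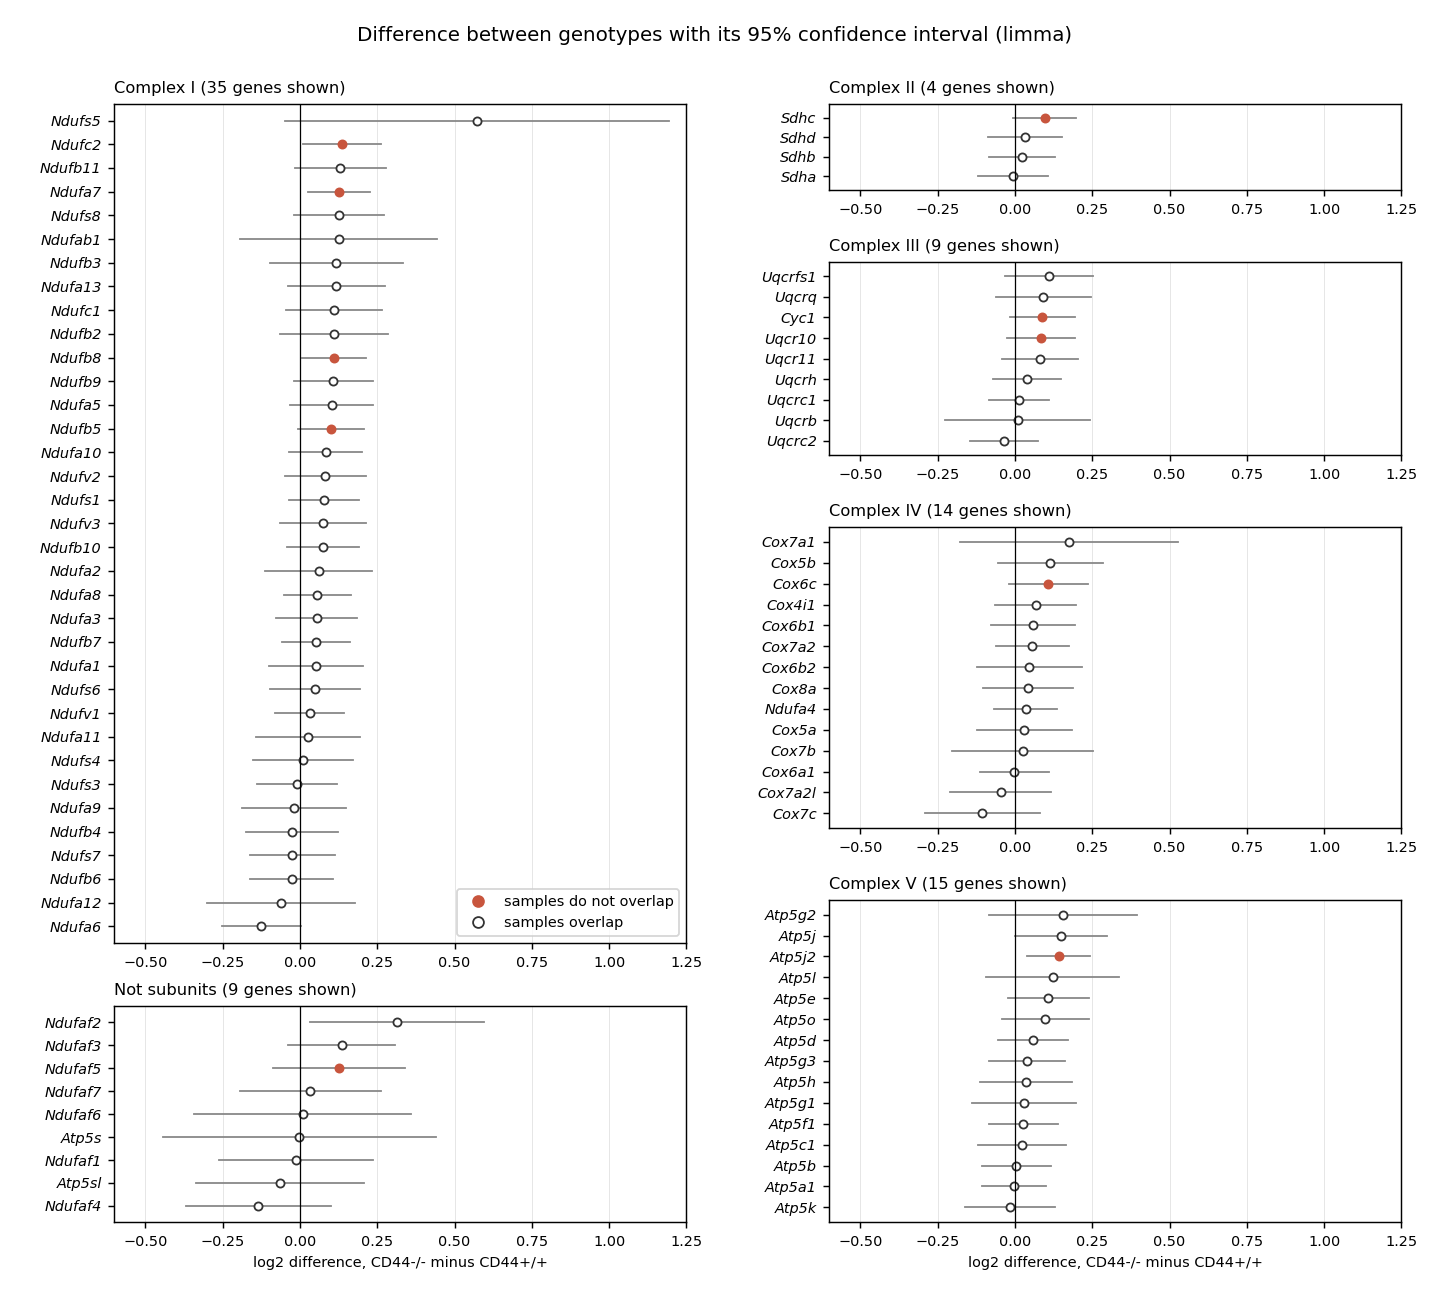
Log2 difference (CD44-/- minus CD44+/+, limma on log2(FPKM + 0.1)) of each gene of the set, but 1 not reported here, with its 95% confidence interval, one panel per complex, genes ordered by the difference; filled red circles are genes whose samples do not overlap between genotypes, open circles those that do. Points lie between -0.13 and 0.57, most of them above 0, and Ndufs5 has the widest interval.

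By complex the median log2 difference was 0.075 in complex I, 0.027 in complex II, 0.082 in complex III, 0.045 in complex IV and 0.039 in complex V, with 29 of 36, 3 of 4, 8 of 9, 11 of 14 and 13 of 15 genes positive. Averaged over the 78 subunits, each centred on its mean log2 value over the 6 samples, the level was -0.013, -0.027 and -0.052 in CD44+/+ AMs and 0.024, -0.003 and 0.072 in CD44-/- AMs, without overlap. With the 9 genes that are not subunits added the genotypes overlapped, at -0.005, -0.028 and -0.056 against 0.027, -0.009 and 0.072. CD44-/- replicate 3 was thus the highest, and without it the median difference of the 87 genes fell to 0.035, against 0.024 for all genes, with 60 of the 87 positive (69.0%, against 59.7% of all genes). The same sample had the highest sum of alveolar type 2 markers, 169 FPKM against 91.2 to 123 FPKM in the others, with 74.2 FPKM of the surfactant protein gene Sftpc against 6.83 to 22.8 FPKM. The part of these cells in the result was not tested.

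Other gene groups of the pathway are given by their counts, and none was tested against the subunits. Of the 77 genes of the mitochondrial ribosome, which makes the mitochondrially encoded subunits, 44 (57.1%) were positive, with a median log2 difference of 0.015, and 4 genes were higher (5.19%, against 4.75% of all genes) and 2 lower (2.60%, against 2.94%) at p under 0.05 without adjustment. Of 78 genes of the cytosolic ribosome 11 (14.1%) were positive, with a median of -0.047, and 0 had an unadjusted p under 0.05. The list of the tricarboxylic acid cycle, which feeds electrons to complexes I and II, also held genes of pyruvate dehydrogenase and pyruvate carboxylase (Pcx). It had 7 of 19 genes positive and a median of -0.041. At that threshold Pdhx, a component of pyruvate dehydrogenase, was higher (log2 difference 0.17) and Pdha1, its catalytic alpha subunit, lower (-0.13), so neither is an enzyme of the cycle itself. In 5 of these 19 genes, Cs, Idh2, Dlst, Pdha1 and Pcx, the genotypes did not overlap and CD44-/- AMs were lower (26.3%, against 4.88% of all genes). In 1, Pdhx, they did not overlap and CD44-/- AMs were higher (5.26%, against 6.75%). For the mitochondrial ribosome these counts were 3 lower and 5 higher, and for the cytosolic ribosome 3 lower and 0 higher. No gene of these lists or of those below passed an adjusted p of 0.05 over all genes tested.

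**Figure D4:**
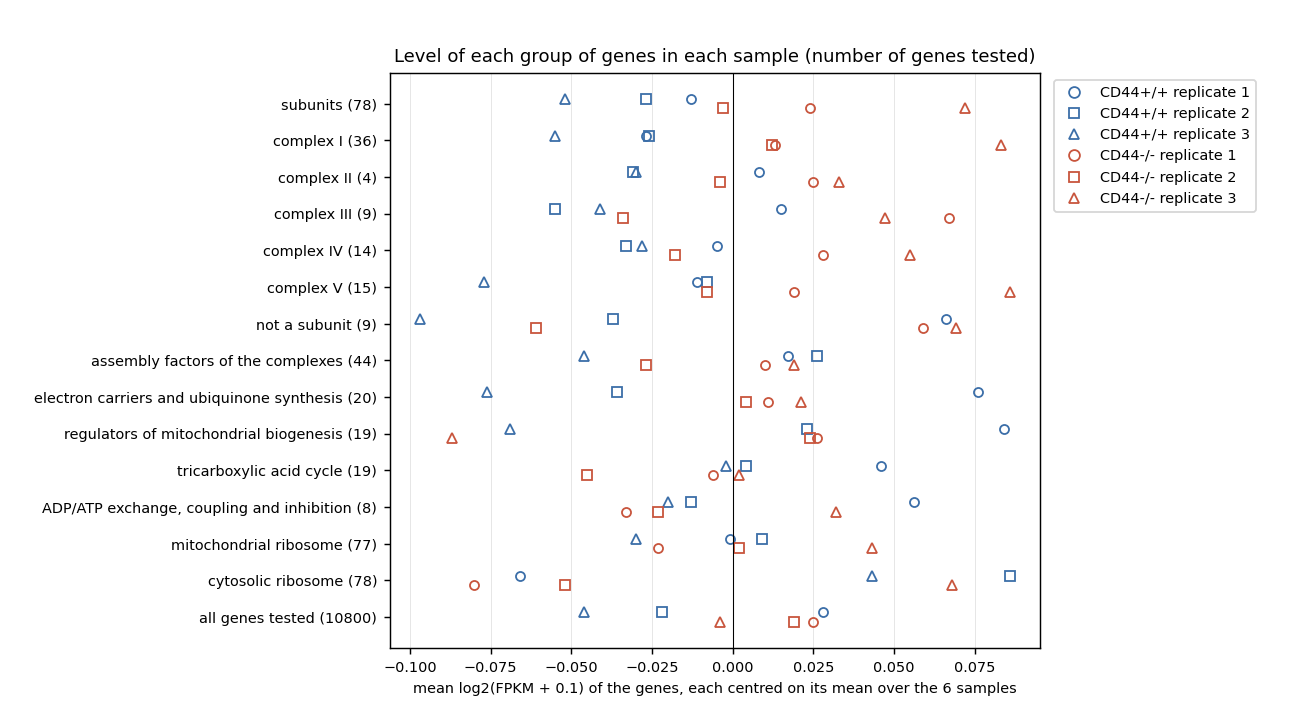
Mean level of each group of genes in each sample, as log2(FPKM + 0.1) centred for each gene on its mean over the 6 samples, with the number of genes tested in brackets; blue symbols are CD44+/+ and red symbols CD44-/- samples, and the shape gives the replicate number. For the 78 subunits the CD44+/+ samples lie at -0.052 to -0.013 and the CD44-/- samples at -0.003 to 0.072, complex I is apart likewise, and the genotypes touch or overlap in each other list and in all genes tested.

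Further assembly factors of the complexes, 44 genes, had a median log2 difference of 0.0083. At an unadjusted p under 0.05, Sdhaf3, an assembly factor of complex II, was lower and Coa7, an assembly factor named for complex IV, higher, each 2.27% of the list against 2.94% of all genes lower and 4.75% higher. The genotypes did not overlap in 5 genes of the list that were lower in CD44-/- AMs (11.4%, against 4.88% of all genes) and in 1 that was higher. Sdhaf3 had 9.75, 9.24 and 8.61 FPKM in CD44+/+ AMs and 7.09, 6.19 and 7.74 FPKM in CD44-/- AMs, without overlap, a log2 difference of -0.39 (standard error 0.097, adjusted p = 0.321 in limma). This was larger in size than that of any complex II subunit, of which Sdhc had the largest.

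Among the 19 tested regulators of mitochondrial biogenesis the median log2 difference was -0.025. The coactivator gene Ppargc1a was barely detected, at 0.0153 to 0.0262 FPKM in all samples, while its relative Ppargc1b had 2.90 to 4.24 FPKM and the nuclear receptor gene Esrra 22.2 to 25.2 FPKM. Ssbp1, which binds single-stranded mitochondrial DNA, was at 12.8, 12.4 and 14.0 FPKM in CD44+/+ AMs and 11.4, 11.5 and 11.3 FPKM in CD44-/- AMs, a log2 difference of -0.20 (limma, adjusted p = 0.518). The 20 genes of electron carriers and ubiquinone synthesis had a median of 0.021, and Cycs, the cytochrome c that links complexes III and IV, was at 7.13 FPKM. Whether Cycs has sequence in common with other transcripts was not checked, so its level is uncertain. Of the 8 genes for ADP/ATP exchange, coupling and inhibition, the uncoupling protein gene Ucp2 had 1670 to 2050 FPKM, above every subunit, and the ADP/ATP carrier gene Slc25a5 had 460 to 527 FPKM. The median of these 8 was -0.0011, and the outer membrane channel gene Vdac2 was lower at an unadjusted p under 0.05 (log2 difference -0.10, adjusted p = 0.616 in limma).

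The largest difference of all 87 genes was that of Ndufs5, an accessory subunit of complex I, on chromosome 4 of mm10 from 123712710 to 123718186. It had 10.4, 19.7 and 13.8 FPKM in CD44+/+ AMs and 14.6, 22.2 and 28.9 FPKM in CD44-/- AMs. The genotypes overlapped, and the log2 difference of 0.57 (95% interval -0.049 to 1.19) had an adjusted p of 0.691 in limma and 0.328 with the block. It was 0.35 without CD44-/- replicate 3 or without CD44+/+ replicate 1, and 0.84 without CD44-/- replicate 1. Its coefficient of variation, 32.2% in CD44+/+ and 32.7% in CD44-/- AMs, was the highest of the 87 genes in both genotypes.

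Ndufs5 has a near-identical copy in the genome. BC002163, a processed pseudogene of 319 bases on chromosome 16 from 42955631 to 42955949 (GENCODE vM21, GRCm38), matches its coding sequence in 316 of 318 bases (99.4%). The first 150 coding bases of Ndufs5 and the matching bases of BC002163 are shown because both differences fall in them; capitals mark the bases that differ.
Ndufs5: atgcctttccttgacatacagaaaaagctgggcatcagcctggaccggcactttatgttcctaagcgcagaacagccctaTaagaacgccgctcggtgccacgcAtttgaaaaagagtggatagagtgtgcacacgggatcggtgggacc
BC002163: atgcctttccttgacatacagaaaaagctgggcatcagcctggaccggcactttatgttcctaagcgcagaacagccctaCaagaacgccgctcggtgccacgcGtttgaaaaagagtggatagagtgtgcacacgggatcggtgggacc

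Within the matched coding bases, a stretch of 42 bases, the length of one read of a pair, is the same in both copies unless it covers one of these bases. In all, 43.8% of the stretches of 42 bases in the Ndufs5 transcript occur elsewhere among annotated transcripts. BC002163, chosen after its values were seen, had 22.6, 20.04 and 24.1 FPKM in CD44+/+ AMs and 23.6, 16.8 and 6.99 FPKM in CD44-/- AMs, lowest in the sample where Ndufs5 was highest. The sum of both genes was 33.0, 39.7 and 37.9 FPKM in CD44+/+ AMs and 38.2, 39.0 and 35.9 FPKM in CD44-/- AMs, a coefficient of variation of 6.62% over the 6 samples against 36.8% for Ndufs5 and 34.1% for BC002163. Weighted by transcript length, which makes it proportional to fragments, the sum had a coefficient of variation of 11.3% and a ratio of highest to lowest sample of 1.37. With Ndufs5 replaced by this sum, a choice made after seeing the data, the log2 difference went from 0.57 to 0.034 (limma, adjusted p = 0.974), and with the sum weighted by length to 0.17 (adjusted p = 0.815 in limma). How the authors assigned reads that match several places is not given in the sources used here.

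**Figure D5:**
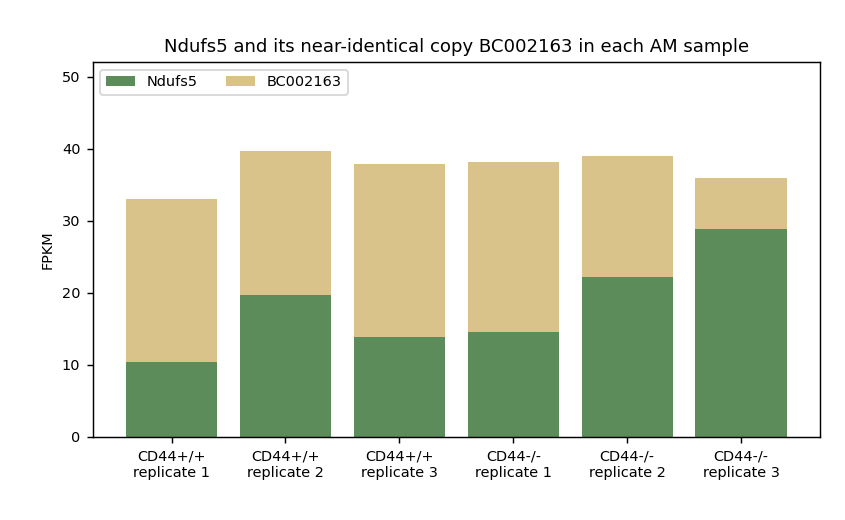
Stacked bars of the FPKM of Ndufs5 (green) and of its near-identical copy BC002163 (sand) in each AM sample. The Ndufs5 part runs from 10.4 to 28.9 FPKM, while the height of the whole bar, which is not weighted by length, stays between 33.0 and 39.7 FPKM.

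Shared stretches were common in the set. Of the 87 genes, 44 had no stretch of 42 bases in common with an annotated transcript elsewhere, 36 shared up to 40% of them and 7 shared more. These were Atp5g2 (100%), Atp5l (69.0%), Atp5h (54.5%), Cox7c (53.7%), Uqcrb (47.98%), Ndufs5 (43.8%) and Ndufs3 (40.6%), and the levels of these 7 are uncertain for that reason. Their median coefficient of variation was 8.73% in CD44+/+ AMs and 9.28% in CD44-/- AMs, against 4.68% and 4.47% in the 44 genes without shared stretches and 4.67% and 4.38% in the 36 that shared up to 40%. The 7 genes were also less abundant, at a median of 46.9 FPKM against 89.8 FPKM for the 44 and 114 FPKM for the 36, and the part of level in their spread was not tested. Each share is of the annotated transcript chosen for the gene, so a long transcript lowers it. Atp5g1 shared 12.9% of a transcript of 4715 bases, with 11 processed pseudogenes among others, and Ndufab1 12.5% of 3479 bases. The levels of such genes may be uncertain too. Atp5g2, the only gene with all of its stretches shared, had 27.4, 33.5 and 32.6 FPKM in CD44+/+ AMs and 30.1, 35.9 and 38.2 FPKM in CD44-/- AMs, with overlap and a log2 difference of 0.15, which was 0.064 without CD44+/+ replicate 1, 0.082 without CD44-/- replicate 3 and 0.25 without CD44-/- replicate 1.

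The positions of the genes gave no group on the chromosome of Cd44. The 7 genes on chromosome 2, Atp5c1, Atp5e, Atp5g3, Ndufa8, Ndufaf1, Ndufaf5 and Ndufs3, had log2 differences of -0.012 to 0.13 with a smallest unadjusted p of 0.0941, and 5 of the 7 were positive. Ndufaf5 had 3.27, 3.2 and 3.21 FPKM in CD44+/+ AMs and 3.51, 3.40 and 3.69 FPKM in CD44-/- AMs, without overlap, and a log2 difference of 0.13 (limma, adjusted p = 0.871). Atp5c1 had 193, 198 and 173 FPKM against 191, 183 and 198 FPKM, Ndufa8, an accessory subunit of complex I, 88.3, 87.5 and 90.3 FPKM against 88.7, 94.9 and 93.3 FPKM, and Ndufs3 44.8, 45.6 and 41.6 FPKM against 43.4, 42.3 and 45.4 FPKM. Ndufaf1, an assembly factor, had 9.61, 9.56 and 8.22 FPKM against 9.73, 7.76 and 9.75 FPKM. The genotypes overlapped in these 4 genes. The most on one chromosome were 8, on chromosome 7, with 6 of the 8 positive.

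The promoters of the set were searched for letters bound by known regulators of respiratory genes. RefSeq windows (GRCm38.p6, 250 bases before and 50 bases after the start) were given for 74 of the 87 genes. GCATGCGC, the core letters of an NRF1 site, stood on either strand in 12 of the 74 (16.2%), against 3.05% of all 27025 genes with a window and 6.5% of the tested genes with one. AAGATGGC, letters bound by YY1, stood in 11 (14.9%, against 3.19% and 5.96%), and CAAGGTCA, letters bound by the receptor encoded by Esrra, in 4 (5.41%, against 1.76% and 1.28%). CCGGAAG, the core of a GABPA site, stood in 17 (23.0%), a share like the 22.1% of tested genes and above the 9.93% of all genes. GGGCGG, letters of an SP1 site, stood in 33 (44.6%), between the 38.2% of all genes and the 69.5% of tested genes. A match is only a match of letters, and binding was not measured.

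The 250 bases before the start are shown for the most abundant gene of complexes I, II, IV and V whose upstream bases hold the NRF1 letters, to show where these lie. They are from RefSeq (GRCm38.p6), written in the direction of the gene, and capitals mark matches on either strand of any of the 5 motifs; in Cox6a1 and Atp5k the run GCGCATGCGC is 2 overlapping NRF1 matches, one on each strand. The windows are Ndufa6 at chr15:82354292-82354541 on the minus strand, Sdhb at chr4:140961021-140961270 on the plus strand, and Cox6a1 at chr5:115348959-115349208 and Atp5k at chr5:108434400-108434649 on the minus strand.
Ndufa6: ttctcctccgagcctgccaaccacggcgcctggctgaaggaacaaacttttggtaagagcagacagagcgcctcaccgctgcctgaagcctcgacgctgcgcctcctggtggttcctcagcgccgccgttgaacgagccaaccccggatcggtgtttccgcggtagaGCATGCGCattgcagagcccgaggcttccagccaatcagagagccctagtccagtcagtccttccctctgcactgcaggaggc
Sdhb: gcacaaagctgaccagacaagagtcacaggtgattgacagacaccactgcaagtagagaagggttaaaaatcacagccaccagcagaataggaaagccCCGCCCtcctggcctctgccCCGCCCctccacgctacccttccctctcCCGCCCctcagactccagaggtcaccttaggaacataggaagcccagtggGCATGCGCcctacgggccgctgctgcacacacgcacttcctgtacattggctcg
Cox6a1: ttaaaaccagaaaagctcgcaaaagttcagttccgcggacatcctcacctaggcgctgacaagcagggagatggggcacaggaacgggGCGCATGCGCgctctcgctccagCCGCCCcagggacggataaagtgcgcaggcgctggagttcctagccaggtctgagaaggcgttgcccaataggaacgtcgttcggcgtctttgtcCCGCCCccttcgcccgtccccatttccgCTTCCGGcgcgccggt
Atp5k: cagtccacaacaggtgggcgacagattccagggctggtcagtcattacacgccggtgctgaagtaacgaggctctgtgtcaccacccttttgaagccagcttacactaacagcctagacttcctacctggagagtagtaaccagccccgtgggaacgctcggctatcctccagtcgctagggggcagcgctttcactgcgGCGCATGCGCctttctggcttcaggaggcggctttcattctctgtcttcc

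Sdhb and Cox6a1 hold SP1 letters as CCGCCC, their other strand, beside the NRF1 letters, and Cox6a1 also holds the GABPA letters as CTTCCGG just before the start. The log2 differences of these 4 genes were -0.13 for Ndufa6, 0.022 for Sdhb, -0.0017 for Cox6a1 and -0.015 for Atp5k. Of all 12 genes with the NRF1 letters, 8 were positive, with a median of 0.025, beside 69 of 87 and 0.054 over the whole set. For the other motifs 12 of 17 genes with the GABPA letters were positive (median 0.038), 23 of 33 with those of SP1 (0.046), 8 of 11 with those of YY1 (0.049) and 4 of 4 with those of the Esrra receptor (0.081). The transcript of the factor itself, Nrf1, had 9.65, 9.80 and 8.83 FPKM in CD44+/+ AMs and 10.1, 8.42 and 8.35 FPKM in CD44-/- AMs, with overlap and a log2 difference of -0.079.

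Most of these transcripts are short, which bears on FPKM: the median transcript length was 875 bases against 2826 bases for tested genes, and 48 of the 78 subunits were under 1000 bases. With each sample centred on genes of like length, the median log2 difference was 0.032 against -0.001 for all genes, and 64 of the 87 genes were positive. Exons of 23 of the 87 genes overlap an annotated gene on the opposite strand, and although the kit kept strand, whether counting used it is not given in the sources used here.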

How the data were processed

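RNA of lavage AMs from 3 CD44+/+ and 3 CD44-/- pools was made into libraries with a stranded mRNA kit and sequenced as read pairs of 42 bases. Per the study's methods and processing notes, the authors used STAR and the mm10 genome for alignment and deposited an FPKM of each gene in each sample, made with Cufflinks. Whether counting used strand, and how reads matching several places were handled, is not given in the sources used here. The deposited pooled FPKM and the Cuffdiff columns (fold change, test statistic, p and q) were not used. Name and position columns followed different orders, so positions were looked up by gene name. 1 gene was left out for a missing value.

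Genotypes and replicate numbers came from the labels. log2(FPKM + 0.1) was compared for the 10800 genes that averaged 0.5 FPKM or more in limma 3.58.1 (R 4.3.3, lmFit and eBayes with a trend), with Benjamini-Hochberg adjustment over all of them. The limma fit was tested on simulated data. FPKM gives no absolute depth, so no counting interval was set. Named by rule, with values in every sample, were the 3 highest genes of each complex, the 10 largest differences, all genes at an unadjusted p under 0.05, isoform families, genes on chromosome 2 (that of Cd44) and the 2 genes on either side of the limit. Other genes of the set were chosen after their values were seen. The members and gene lists were chosen with earlier results of these data known. Counts and sums cover the whole set, but 1 of its genes is not reported here by name or plotted.

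Same-numbered samples deviated together from their genotype means (correlations of 0.212, 0.132 and 0.211 over 10800 genes, each over 0.1), and were treated as paired in a second fit with the replicate number as a block. The labels do not say what the number marks. Other pairings of the samples were not compared, so these correlations cannot show that the numbers mark pairs. Nothing says whether the pools were collected on separate days, so p-values measure the spread between pools. Alternatives were other pseudocounts, filters, scalings and variance settings, centring by transcript length, and leaving out each sample. Sequences and positions came from RefSeq (GRCm38.p6) and GENCODE vM21.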

Additional observations from a re-analysis of the deposited data

Results flagged for a closer look

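Cox6a2, the heart and muscle form of a complex IV subunit, was under the limit of 0.5 FPKM and so outside the comparison. It was listed at 0, 0 and 0.197 FPKM in CD44+/+ AMs and at 0.342, 0.761 and 0.666 FPKM in CD44-/- AMs, a mean of 0.59 FPKM, with every CD44-/- sample above every CD44+/+ sample (exact permutation test, 2-sided, p = 0.1, the smallest possible). Its exons overlap those of Itgad on the opposite strand, which had 11.2, 6.89 and 6.28 FPKM in CD44+/+ AMs and 7.48, 13.2 and 10.6 FPKM in CD44-/- AMs. The part of Itgad reads in the Cox6a2 values was not tested.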

How the results depend on the processing

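None of the 87 genes passed an adjusted p of 0.05 in any of 16 alternatives, and the replicate block changed no adjusted call. The count at an unadjusted p under 0.05, 6 higher and 0 lower in CD44-/- AMs, was 10 and 0 with the replicate block, 2 and 0 with median-ratio scaling, 11 and 0 with quantile normalization, 2 and 0 with eBayes without a trend (all genes 5.09% higher and 2.69% lower), and 3 and 1 (Ndufa6) with transcript length centring (4.65% and 4.21%). With one sample left out it ran from 2 (without CD44-/- replicate 3, all genes 3.36%) to 9 (without CD44+/+ replicate 1, all genes 8.81%) higher and from 0 to 1 lower, the 1 being Ndufa6 without CD44+/+ replicate 1. Over all 10800 genes, 4.75% were higher and 2.94% lower, against 4.31% and 4.07% with median-ratio scaling and 4.22% and 4.13% with quantile normalization. The median log2 difference of the 87 genes stayed positive, at 0.032 to 0.074. The difference of Cox7a1, 0.18, ran from -0.023 (without CD44+/+ replicate 2) to 0.28 with one sample left out. The same range was 0.35 to 0.84 for Ndufs5, 0.064 to 0.25 for Atp5g2, 0.21 to 0.45 for Ndufaf2, 0.088 to 0.19 for Ndufaf3 and 0.087 to 0.19 for Ndufb11. The median over all genes tested, 0.013, changed sign to -0.0037 with median-ratio scaling, -0.0041 with quantile normalization, -0.0010 with transcript length centring and -0.0076 without CD44+/+ replicate 3. Without CD44+/+ replicate 1 it rose to 0.039, against 0.058 for the 87 genes, with 64% of all genes and 90.8% of the 87 positive. The causes of these shifts were not tested. Depth per sample is unknown, which leaves the precision of the lowest values unknown too.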
